A study of Mus musculus with 14 samples.

Results

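Expression of 32 genes of cholesterol synthesis and of its control by the sterol regulatory element binding proteins (SREBPs) was followed in mSCC-38 cells, a mouse cell line that comes from a skin carcinoma of the DMBA/TPA model. The 32 genes were listed by name and all of them were found among the 21356 genes tested. Together they had 50 probes, 14 members had several, and the brightest probe stood for its gene. Every probe used was well above background on all 14 arrays, so no member was lost to the filter on dim probes. The cells had been left untransfected (NT, 4 arrays), or transfected with RNAimax, a lipid reagent, and a control siRNA (SiC, 3 arrays), the siRNA Si1AK (4 arrays) or the siRNA Si2AK (3 arrays), both directed at the transcript AK144841. Transfected cells were harvested after 72 h, and the labels give no time for NT. All groups are mSCC-38 cells grown with fetal calf serum, and SiC rests on a single control siRNA. Whether the replicates are independent cultures is not stated, and the spread behind every p-value may therefore be technical. The level of AK144841 itself was not analysed here, so the siRNA labels rest on the submitters' words.

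Cholesterol is built from acetyl-CoA through mevalonate and farnesyl pyrophosphate to squalene, which is closed into lanosterol and then trimmed, reduced and isomerised to cholesterol. Transcription of nearly every enzyme of this route is driven by SREBPs, membrane proteins that the escort SCAP carries from the endoplasmic reticulum to the Golgi, where they are cut and released as transcription factors. INSIG proteins hold SCAP back when sterols are plentiful, so the whole set of genes is known to rise when sterols are short and to fall when they are in excess. In skin, keratinocytes make much of their own cholesterol and fatty acids for the permeability barrier.

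With limma over all genes and Benjamini-Hochberg adjustment, 0 of the 32 members passed an adjusted p of 0.05 in Si1AK against SiC. In Si2AK against SiC, Insig2 and Tm7sf2 rose, while Lbr and Scd2 fell. The siRNAs also differed from each other: Pmvk, Fdps, Sqle, Tm7sf2, Ebp, Insig2 and Scd1 were higher with Si2AK than with Si1AK, by 1.31 to 1.61-fold. No member passed as lower, where 6.33% of all genes were higher and 6.15% lower. Scd2 narrowly missed, at -0.43 (adjusted p = 0.0514), and was called lower under several alternatives. The probes of these 9 members lay, on mm9, at chr3:89272867-89272926 (Pmvk), chr15:59162688-59162747 (Sqle) and chr19:44381024-44381083 (Scd2) on the plus strand, and at chr3:88897549-88897608 (Fdps), chr19:6062882-6062941 (Tm7sf2), chrX:7762463-7762522 (Ebp), chr1:183745893-183745952 (Lbr), chr1:123201085-123201144 (Insig2) and chr19:44469387-44469446 (Scd1) on the minus strand. Which part of the transcript they match was not analysed here.

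SREBPs are known to bind sterol response elements together with the factors NF-Y and Sp1, so the promoters are shown first. RefSeq promoters (GRCm38.p6, 250 bases before to 50 after a start) were matched by symbol for 25 members. The letters TCACNCCAC, the core of a sterol response element, were searched on both strands and were found in 1 of these 25 members, Hmgcs1, against 1.44% of 27025 genes. CCAAT, the box of NF-Y, was found in 22 members (88% against 41.1% of genes), GGGCGG, the box of Sp1, in 21 (84% against 38.2%), and the E-box CACGTG in 5 (20% against 8.09%). None of these motifs contains another, and a match is a string of letters, not a measured binding site. Shown are the 150 bases before the start of Hmgcs1, the only one of the 25 matched members with the sterol element core, of 4 members that differed between the siRNAs (Pmvk, Tm7sf2, Ebp and Insig2) and of Lbr, which fell with Si2AK. Capitals mark the sterol element core and the NF-Y box in either orientation, and each line is read 5′ to 3′ on the strand of the gene.
Hmgcs1: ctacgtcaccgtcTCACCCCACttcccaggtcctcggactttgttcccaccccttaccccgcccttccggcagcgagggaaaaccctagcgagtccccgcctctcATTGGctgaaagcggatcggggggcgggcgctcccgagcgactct
Pmvk: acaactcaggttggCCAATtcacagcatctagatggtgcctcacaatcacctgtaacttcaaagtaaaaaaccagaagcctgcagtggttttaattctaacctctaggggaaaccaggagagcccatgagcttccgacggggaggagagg
Tm7sf2: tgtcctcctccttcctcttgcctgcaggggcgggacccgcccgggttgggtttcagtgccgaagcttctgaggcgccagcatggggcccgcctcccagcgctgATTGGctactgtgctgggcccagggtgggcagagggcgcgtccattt
Ebp: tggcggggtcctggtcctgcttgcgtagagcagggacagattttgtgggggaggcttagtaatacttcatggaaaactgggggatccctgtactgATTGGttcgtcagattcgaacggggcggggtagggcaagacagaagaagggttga
Insig2: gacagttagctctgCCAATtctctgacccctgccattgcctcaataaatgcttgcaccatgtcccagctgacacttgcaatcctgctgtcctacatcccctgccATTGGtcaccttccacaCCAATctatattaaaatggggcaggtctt
Lbr: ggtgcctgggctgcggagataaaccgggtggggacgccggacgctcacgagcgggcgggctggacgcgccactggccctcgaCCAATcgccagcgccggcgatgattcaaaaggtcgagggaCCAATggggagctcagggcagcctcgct
The windows are chr13:119690201-119690350 and chr3:89454391-89454540 on the plus strand, and chr19:6067851-6068000, chrX:8193513-8193662, chr1:121332590-121332739 and chr1:181842402-181842551 on the minus strand. In Hmgcs1 the sterol element core began at position -137 and an NF-Y box at -45, counted from the start. The NF-Y box began at -136 in Pmvk, -47 in Tm7sf2 and -55 in Ebp. Insig2 held 3 such boxes in the window shown, at -136, -46 and -29, and Lbr held 2, at -68 and -28. The 4 members that were higher with Si2AK than with Si1AK and Lbr, which was lower with Si2AK than with SiC, all carried NF-Y letters in these windows, and the sterol element core was not found in their matched promoters. RefSeq lists 2 starts for Pmvk and 3 for Insig2, of which the window with the most matches is shown. No NF-Y box was found in the promoters at the other listed starts of Pmvk and Insig2.

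A pair of arrays stood apart from the rest before any group was compared. The median processed signal was 270.9 on SiC replicate 1 and 107.5 on Si2AK replicate 2, against 23.5 to 58.7 on the other 12 arrays. The share of spots well above background was 90.5% and 84.9% there, against 52.7% to 60.1%. Results with these groups are therefore also given without both arrays. Levels are log2 of the processed signal minus the 75th percentile of the same array, so they have no unit and are relative to the other probes. Of 8 keratinocyte markers, 6 (Krt5, Krt14, Krt6a, Trp63, Itga6 and Sfn) were well above background on all 14 arrays, and Cdh1 and Dsg3 were not. So were 4 of 7 leukocyte, 3 of 5 endothelial, 3 of 5 melanocyte, 3 of 8 fibroblast and 1 of 6 adipocyte or sebocyte markers. Detection alone thus did not separate the cell types. The summed level of the 7 tested keratinocyte markers, in multiples of the 75th percentile, was 698 to 833 in NT, 549 to 705 in SiC, 592 to 663 in Si1AK and 744 to 766 in Si2AK. Of these 7, 4 were higher in Si2AK than in SiC, and 5 than in Si1AK. Summed levels of other cell types were far lower, at most 1.99 for fibroblasts, 15.8 for leukocytes, 13.2 for endothelium, 4.15 for melanocytes and 0.548 for adipocytes or sebocytes. Melanocyte markers summed to 3.86 to 4.15 in Si2AK and 2.04 to 2.63 in the other groups. Of 4 tested, 1 was higher in Si2AK than in SiC, and against Si1AK 1 was higher and 1 lower. Leukocyte markers summed to 10.9 to 11.8 in Si2AK, 12.2 to 15.3 in NT, 11.1 to 15.8 in SiC and 13.9 to 15.8 in Si1AK. Of 4 tested leukocyte markers 1 was lower in Si2AK than in NT. Fibroblast markers summed to 0.823 to 0.945 in NT, 1.01 to 1.56 in SiC, 1.05 to 1.55 in Si1AK and 1.56 to 1.99 in Si2AK, and of 6 tested 1 was higher in Si2AK than in SiC and 2 than in NT. The part of these shifts in the members' results was not tested, and in bulk RNA fewer cells of a type and less RNA per cell cannot be told apart.

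**Figure D1:**
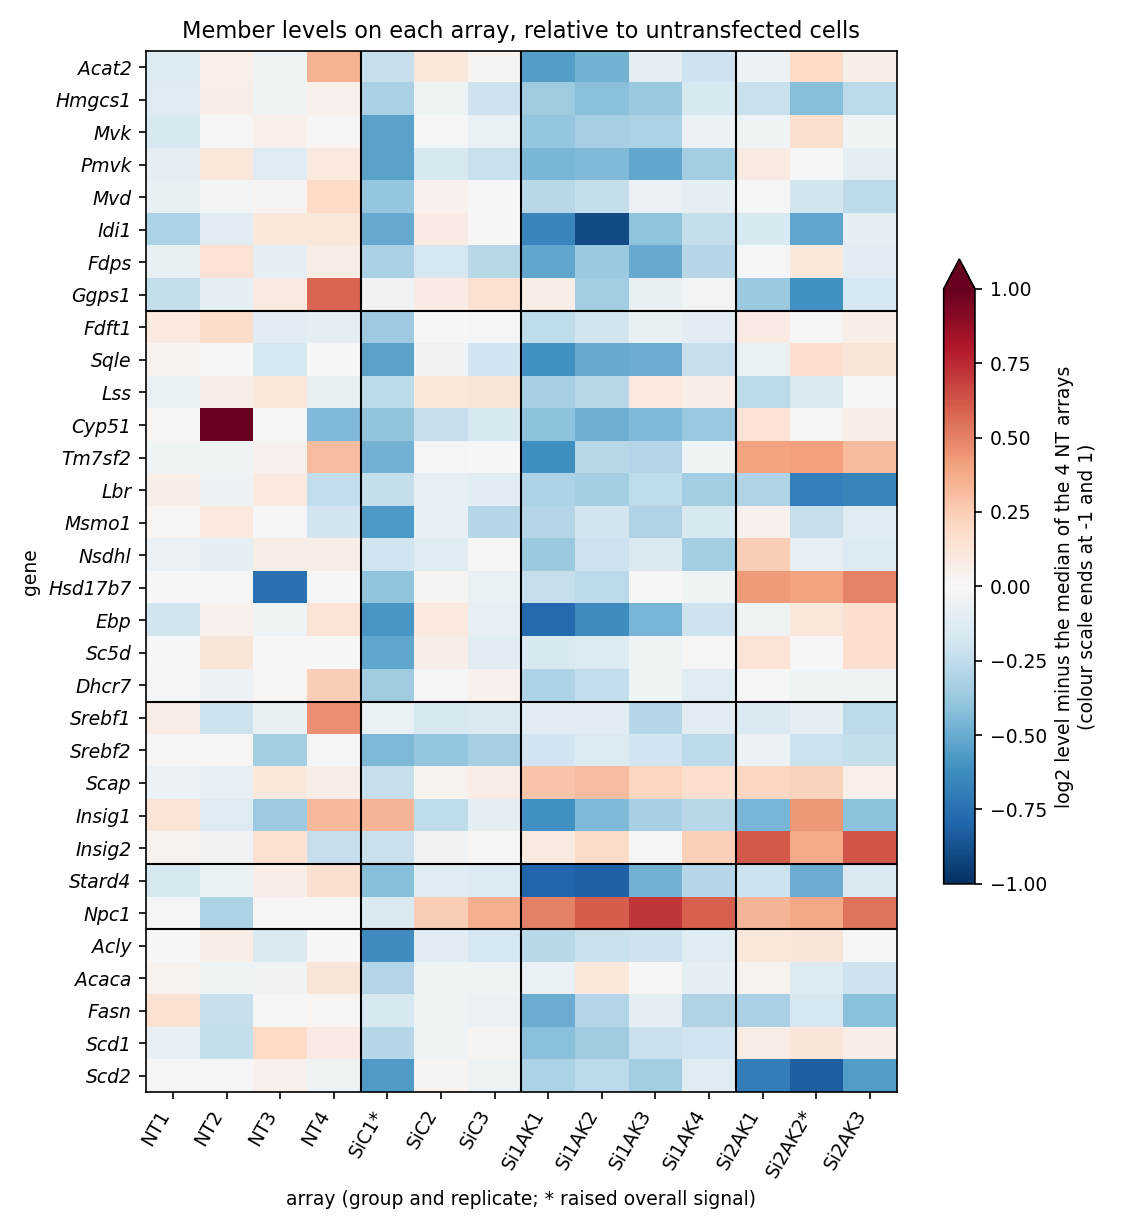
Levels of the 32 members (rows, in the order mevalonate steps, sterol steps, regulators, transport and fatty acid synthesis) on the 14 arrays (columns), as log2 level minus the median of the 4 NT arrays. Blue is lower and red is higher, and the colour ends at 1, which the Cyp51 value of NT replicate 2 (level 8.94) exceeds. Blue cells gather in SiC replicate 1 and in the Si1AK arrays, while Insig2, Tm7sf2 and Hsd17b7 are red and Lbr and Scd2 blue in all 3 Si2AK arrays.

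Per array, the members as a set were lowest on SiC replicate 1 and on the Si1AK arrays. The members' median deviation from the NT mean was -0.33 on SiC replicate 1, but -0.03 and -0.05 on SiC replicates 2 and 3. Cyp51 was left out of these medians because of its NT replicate 2 value. On SiC replicate 1 the median over 5252 bright genes, those with a mean level above 3, was -0.37. The members, some of which lie below that level, thus shifted there about as far as bright genes did. On the Si1AK arrays the members' medians were -0.34, -0.29, -0.19 and -0.14, and those of bright genes -0.14, -0.08, -0.13 and -0.05. On the Si2AK arrays they were -0.03, -0.03 and -0.09 for the members and -0.02, -0.04 and -0.01 for bright genes. SiC replicate 1 was the lowest of the 14 arrays for 11 members and Si1AK replicate 1 for 10.

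**Figure D2:**
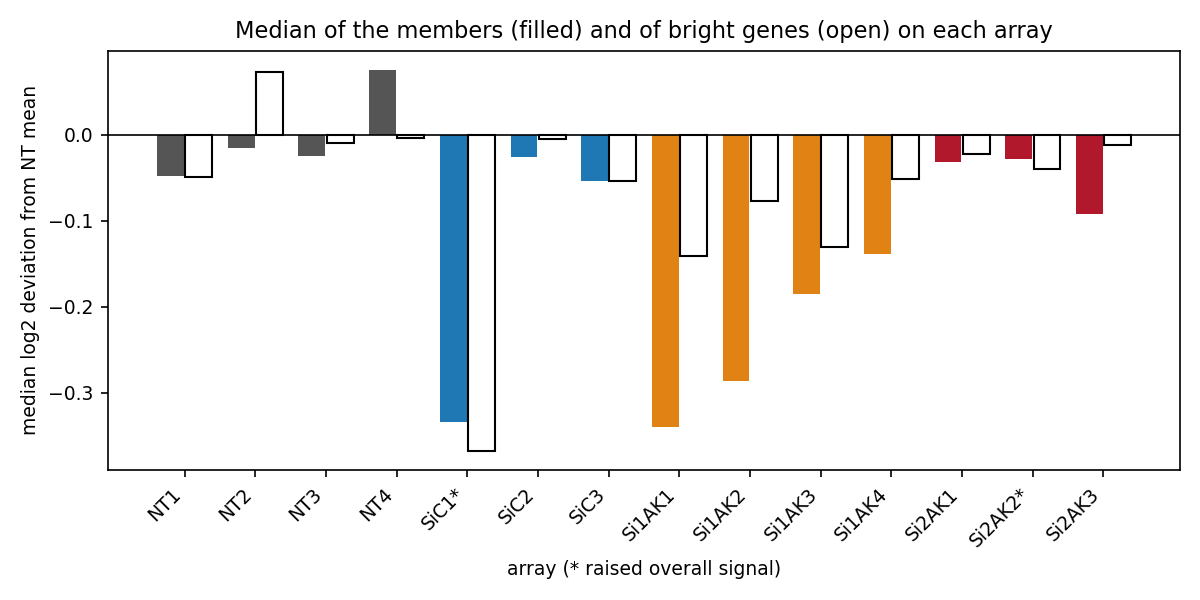
Median log2 deviation from the NT mean on each array, for the members other than Cyp51 (filled bars, coloured by group) and for 5252 bright genes (open bars). The members and the bright genes lie together at -0.33 and -0.37 on SiC replicate 1, and the members lie below the bright genes on all 4 Si1AK arrays.

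Si1AK against SiC asked how the members responded to the first siRNA relative to the control siRNA. None of the 32 passed, whereas 4.39% of all genes did (3.17% higher and 1.22% lower). Of 21356 genes, 4019 had an unadjusted p under 0.05, and among the members 3 of 32 did. These were Npc1, which exports cholesterol from lysosomes (log2 difference 0.45, 95% interval 0.17 to 0.73, adjusted p = 0.0711), the escort Scap (0.29, interval 0.09 to 0.48, adjusted p = 0.109) and Stard4, which carries sterols through the cytosol (-0.36, interval -0.69 to -0.04, adjusted p = 0.216). The difference was negative for 23 members and positive for 9, with a median of -0.12 against -0.06 over all genes and 0.04 over bright genes. With quantile normalization the median was -0.15 for the members and 0.06 for all genes, and without both arrays of raised signal it was -0.21 against -0.03. Within slide 1, where SiC has 1 array, the members' median was 0.00, and within slide 2 it was -0.14. By their brightest probes, all 8 members of the mevalonate steps had negative differences, none of which passed (adjusted p of 0.282 to 0.824). They ran from -0.41 for Idi1, the isopentenyl diphosphate isomerase, to -0.05 for Mvd. The probes of Ggps1, one of these members, disagreed, at -0.16 for the brightest and 0.17 and -0.52 for the others.

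Si2AK against SiC called 4 of 32 members (12.5%), 2 higher and 2 lower, which is close to the 13.2% of all genes called (8.52% higher and 4.67% lower). The difference was positive for 21 members and negative for 11, with a median of 0.18 against -0.02 over all genes and 0.11 over bright genes. Without both arrays of raised signal the median was 0.06 and 2 members were called, Insig2 and Scd2. With quantile normalization and in the authors' deposited table of values 1 was higher (Insig2) and 2 were lower (Lbr and Scd2). Without the filter on dim probes only Insig2 was called, and in a fit of these 2 groups alone no member was (0; 90 of all genes). Within slide 1 the members' median was 0.35, and within slide 2, where Si2AK has 1 array, it was 0.00.

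The comparison of the siRNAs with each other leaves SiC replicate 1 out of the difference. Si2AK against Si1AK called 7 of 32 members, all higher (21.9%), where 12.5% of all genes were called (6.33% higher and 6.15% lower). The members' median was 0.24 against 0.10 over all genes and 0.08 over bright genes, with 23 positive and 9 negative differences. With quantile normalization 7 members were higher and 1, Scd2, was lower, and the median was 0.12 for the members and -0.04 for all genes. In the authors' deposited table of values 8 were higher and 1, Scd2, was lower. With normexp background correction 5 were higher and 1, again Scd2, was lower. Without both arrays of raised signal 6 were higher and 1 lower, with a median of 0.23. Without the filter on dim probes only Tm7sf2 was called. In a fit of these 2 groups alone 11 members were called (10 higher and 1 lower), and 2933 of all genes. The members' median was 0.31 within slide 1 and 0.13 within slide 2. The comparisons with SiC, with NT and between the siRNAs share arrays, so their values are set side by side below and are not independent of each other.

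**Figure D3:**
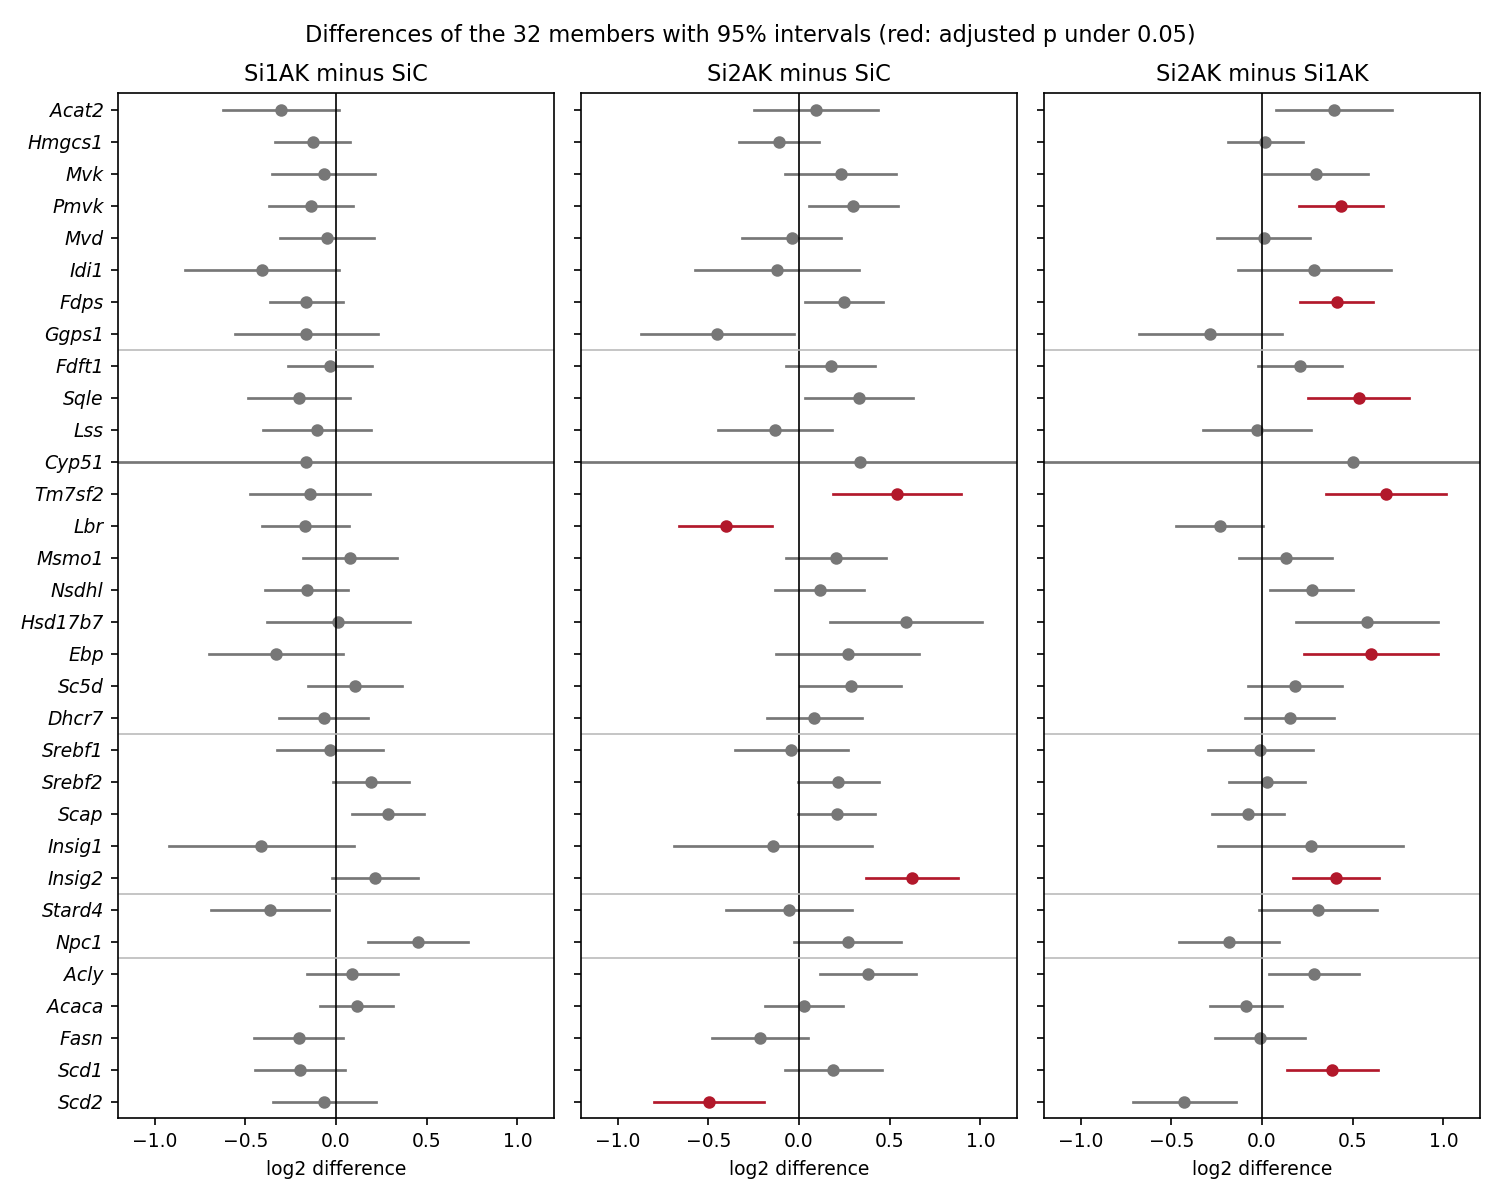
Log2 differences (points) and 95% intervals (lines) of the 32 members, in the same order as above, for Si1AK minus SiC, Si2AK minus SiC and Si2AK minus Si1AK. Red marks an adjusted p under 0.05: 0, 4 and 7 members. The intervals of Cyp51 run past the axis because of its NT replicate 2 value.

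The early, mevalonate steps were held by 8 members: Acat2, which joins acetyl-CoA units, Hmgcs1, the HMG-CoA synthase, the kinases Mvk and Pmvk, the decarboxylase Mvd, the isomerase Idi1, the farnesyl pyrophosphate synthase Fdps and Ggps1, which makes geranylgeranyl pyrophosphate on a side branch. Of these, Pmvk and Fdps were higher with Si2AK than with Si1AK, and both were lower with Si1AK than in NT. The other 6 did not pass in any comparison of the main fit.

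Pmvk, the phosphomevalonate kinase, stood at 5.50, 5.71, 5.47 and 5.70 in NT, at 5.06, 5.44 and 5.38 in SiC, at 5.14, 5.16, 5.08 and 5.25 in Si1AK, and at 5.69, 5.59 and 5.50 in Si2AK. All Si2AK arrays lay above all Si1AK arrays and within the range of NT, while SiC overlapped Si1AK. Si2AK was 1.35-fold above Si1AK (log2 difference 0.44, SE 0.105, adjusted p = 0.0184), and the other Pmvk probe gave 0.42 (adjusted p = 0.0129 over probes). The call was lost without Si1AK replicate 3 (adjusted p = 0.0549), Si2AK replicate 1 (0.0771) or Si2AK replicate 2 (0.0587). It was 0.49 within slide 1 and 0.33 within slide 2. Against NT, Si1AK fell by 0.44 (adjusted p = 0.0196), a Pmvk call lost without NT replicate 2 or 4 or Si1AK replicate 1, 2 or 3 (adjusted p of 0.0546 to 0.0637), and the interval of Si2AK against NT was -0.23 to 0.23. The Pmvk promoter shown above holds a single NF-Y box.

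Fdps, whose product feeds sterols, ubiquinone and protein prenylation, stood at 7.36, 7.58, 7.34 and 7.52 in NT, at 7.12, 7.27 and 7.16 in SiC, at 6.92, 7.06, 6.94 and 7.15 in Si1AK, and at 7.42, 7.54 and 7.33 in Si2AK. Si2AK again lay above all Si1AK and all SiC arrays and overlapped NT. It was 1.33-fold above Si1AK (0.41, SE 0.0919, adjusted p = 0.0122), a call that leaving out Si2AK replicate 2 ended (0.36, adjusted p = 0.0616). Within slides the difference was 0.49 and 0.29. Si1AK fell by 0.43 against NT (adjusted p = 0.0106), but fell by 0.22 in the authors' deposited table of values (adjusted p = 0.159).

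Among the other early genes, Acat2 was 0.40 higher in Si2AK than in Si1AK (interval 0.08 to 0.72, adjusted p = 0.11) and Mvk 0.30 higher (interval 0.01 to 0.58, adjusted p = 0.189). Hmgcs1, the member with the sterol element core in its promoter, stood at 6.34 ± 0.09 in NT (SD, n = 4), 6.16 ± 0.14 in SiC (n = 3), 6.03 ± 0.12 in Si1AK (n = 4) and 6.05 ± 0.10 in Si2AK (n = 3). Its difference between the siRNAs was 0.02 (interval -0.19 to 0.23), so it did not go with Pmvk and Fdps. Idi1 differed by 0.29 (interval -0.13 to 0.71, adjusted p = 0.423) and Mvd by 0.01 (interval -0.25 to 0.27). Ggps1 was measured by 3 probes that disagreed, with Si2AK minus SiC at -0.45 for the brightest and -0.49 and 0.29 for the others, so no direction is given for it.

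The sterol steps were held by 12 members. Sqle, Tm7sf2 and Ebp were higher with Si2AK than with Si1AK, and Tm7sf2 also rose and Lbr fell in Si2AK against SiC. Of the 12, 10 had positive differences and 2 negative ones between the siRNAs, with a median of 0.24.

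Sqle, the squalene epoxidase, an oxygen-dependent and rate-limiting step, stood at 5.96, 5.92, 5.74 and 5.91 in NT, at 5.38, 5.88 and 5.72 in SiC, at 5.32, 5.41, 5.42 and 5.69 in Si1AK, and at 5.85, 6.09 and 6.04 in Si2AK. The Si2AK arrays lay above the Si1AK arrays and overlapped NT and SiC. Si2AK was 1.45-fold above Si1AK (0.53, SE 0.127, adjusted p = 0.0173), and Sqle lost the call without Si1AK replicate 1 (adjusted p = 0.0551), Si2AK replicate 2 (0.0752) or Si2AK replicate 3 (0.0621). Within slides the Sqle difference was 0.61 and 0.48.

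Tm7sf2 and Lbr encode reductases of the same sterol double bond, Lbr being at the same time a receptor of lamin B in the inner nuclear membrane. Tm7sf2 stood at 4.38, 4.37, 4.46 and 4.72 in NT, at 3.94, 4.40 and 4.42 in SiC, at 3.80, 4.14, 4.12 and 4.37 in Si1AK, and at 4.82, 4.83 and 4.73 in Si2AK. Its 3 Si2AK values were above every other array. Si2AK was 1.61-fold above Si1AK (0.69, SE 0.151, adjusted p = 0.0113), which no single array ended (adjusted p of 0.00871 to 0.0445), and 1.45-fold above SiC (0.54, SE 0.161, adjusted p = 0.0475). The rise over SiC lost its call without SiC replicate 1 (0.38, adjusted p = 0.133), SiC replicate 2 (0.057), Si2AK replicate 1 (0.126), Si2AK replicate 2 (0.112) or Si2AK replicate 3 (0.0847), without both arrays of raised signal (0.37, adjusted p = 0.234), and with quantile normalization (0.39, adjusted p = 0.0864) and in the authors' deposited table (0.38, adjusted p = 0.0865). Tm7sf2 differed from SiC by 0.88 within slide 1 and 0.32 within slide 2. The other Tm7sf2 probe gave 0.57 between the siRNAs (adjusted p = 0.0228 over probes) and 0.39 against SiC (adjusted p = 0.131).

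Lbr stood at 4.02, 3.90, 4.06 and 3.72 in NT, at 3.72, 3.88 and 3.85 in SiC, at 3.65, 3.62, 3.71 and 3.62 in Si1AK, and at 3.66, 3.28 and 3.30 in Si2AK. Replicate 1 of Si2AK lay among the Si1AK arrays and the other Si2AK arrays below all others. In Si2AK Lbr fell by 0.40 against SiC (SE 0.117, adjusted p = 0.042) and fell by 0.51 against NT (adjusted p = 0.00841), and the difference from Si1AK was -0.23 (interval -0.47 to 0.01). The fall against SiC lost its call without SiC replicate 2 (adjusted p = 0.111), SiC replicate 3 (0.0987), Si2AK replicate 2 (0.136) or Si2AK replicate 3 (0.132), and without both arrays of raised signal (-0.38, adjusted p = 0.113). It was -0.25 within slide 1 and -0.56 within slide 2. Its dimmer probe gave -0.31 (adjusted p = 0.318 over probes).

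Ebp, the sterol isomerase of a later step, stood at 6.54, 6.77, 6.68 and 6.86 in NT, at 6.14, 6.83 and 6.64 in SiC, at 5.94, 6.09, 6.26 and 6.52 in Si1AK, and at 6.68, 6.84 and 6.90 in Si2AK. The Si1AK arrays lay below all NT and Si2AK arrays, and SiC replicate 1 lay among them. Si2AK was 1.52-fold above Si1AK (0.60, SE 0.169, adjusted p = 0.038). Ebp lost this call without Si1AK replicate 1 (0.108), 2 (0.0948) or 3 (0.0724) and without Si2AK replicate 1 (0.0624), 2 (0.115) or 3 (0.124), each an adjusted p, but kept it without both arrays of raised signal (0.58, adjusted p = 0.0317). The Ebp difference was 0.74 within slide 1 and 0.51 within slide 2.

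Hsd17b7, a ketosteroid reductase of the demethylation steps, stood at 3.03 ± 0.37 in NT, 3.07 ± 0.23 in SiC, 3.08 ± 0.13 in Si1AK and 3.66 ± 0.05 in Si2AK (SD, n = 4, 3, 4 and 3). Its brightest probe differed by 0.59 from SiC (adjusted p = 0.0658) and by 0.58 from Si1AK (adjusted p = 0.0581), and it passed against NT (0.62, adjusted p = 0.0349). The call against NT was lost without Si2AK replicate 1 (adjusted p = 0.0889), 2 (0.0825) or 3 (0.1). Its other probes gave 0.78 (adjusted p = 0.00406 over probes) and 0.50 (0.0502) against SiC. With the mean of a gene's probes in place of the brightest, Hsd17b7 passed against SiC (0.62, adjusted p = 0.00237).

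Cyp51, the lanosterol demethylase, had a single discordant value. Its processed signal was 287418 on NT replicate 2 and 3760 to 9537 on the other 13 arrays, and the authors' deposited table shows the same array high (18.46 against 12.44 to 13.02). On NT replicate 2, 4 probes were more than 16-fold above every other array, against 0 to 2 on the other arrays. With that value left in, no comparison of Cyp51 passed. With that spot set to missing, an alternative chosen after seeing the data, Cyp51 was 0.50 higher in Si2AK than in Si1AK (SE 0.111, adjusted p = 0.0137), so that 8 members were called, and 0.34 higher than SiC (adjusted p = 0.0951). Its levels were 2.62 ± 0.04 in Si1AK (SD, n = 4), 2.78 ± 0.12 in SiC (n = 3) and 3.12 ± 0.06 in Si2AK (n = 3).

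The other sterol genes did not pass in any comparison of the main fit. Between the siRNAs, Nsdhl, a dehydrogenase of the demethylation steps, differed by 0.27 (interval 0.05 to 0.50, adjusted p = 0.124) and Fdft1, the squalene synthase, by 0.21 (interval -0.02 to 0.44). Msmo1, the methylsterol monooxygenase, differed by 0.13 (interval -0.13 to 0.39), Sc5d, the lathosterol desaturase, by 0.18 (interval -0.08 to 0.44), Dhcr7, which reduces the immediate precursor of cholesterol, by 0.15 (interval -0.09 to 0.40) and Lss, the lanosterol synthase, by -0.03 (interval -0.32 to 0.27). The other Nsdhl probe gave 0.45 between the siRNAs (adjusted p = 0.025 over probes). With the mean of a gene's probes, 10 members were called between the siRNAs (2458 of all genes), with Nsdhl, Hsd17b7 and Stard4 added. Nsdhl was then also called, lower, in Si1AK against NT.

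**Figure D4:**
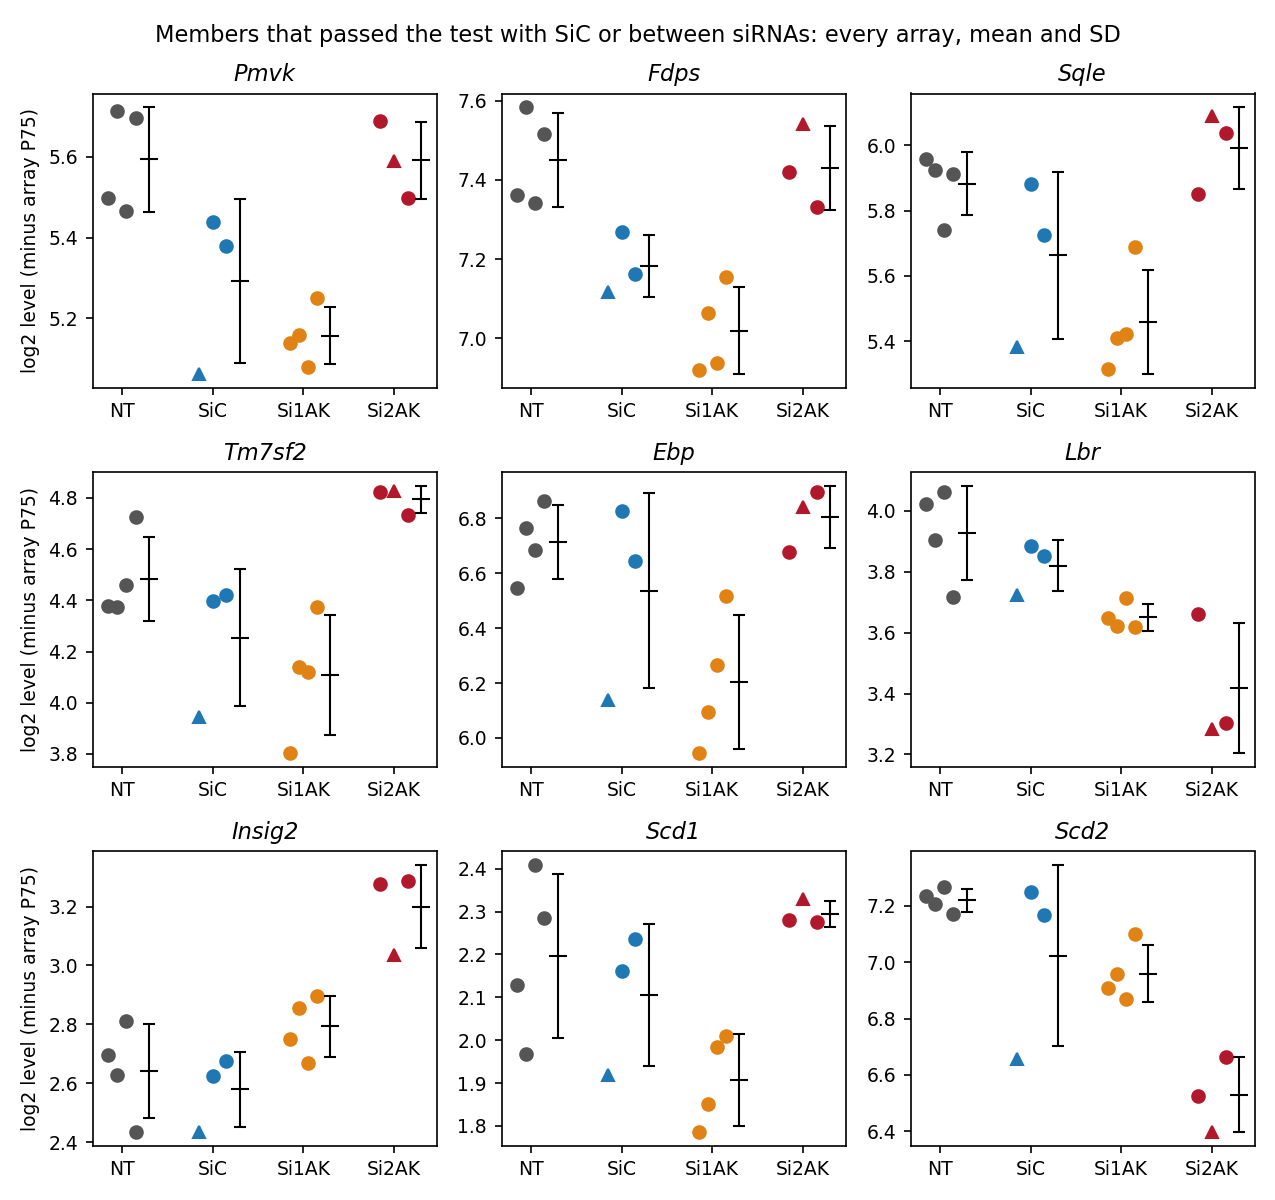
Log2 level minus the array's 75th percentile (P75) for the 9 members called against SiC or between the siRNAs, by group. Points are arrays (triangles for SiC replicate 1 and Si2AK replicate 2, the arrays of raised signal), and bars are the mean and SD. The Si2AK arrays lie above all Si1AK arrays for Pmvk, Fdps, Sqle, Tm7sf2, Ebp, Insig2 and Scd1, and SiC replicate 1 is the lowest SiC array in every panel.

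Of the 5 regulators only Insig2 passed in the main fit. Insig2 holds the SCAP complex in the endoplasmic reticulum and, unlike Insig1, is known not to depend on SREBPs for its basal transcription. Insig2 stood at 2.70, 2.63, 2.81 and 2.43 in NT, at 2.44, 2.63 and 2.68 in SiC, at 2.75, 2.86, 2.67 and 2.90 in Si1AK, and at 3.28, 3.04 and 3.29 in Si2AK. Its 3 Si2AK values were above every other array, and SiC overlapped both NT and Si1AK. Insig2 was 1.54-fold higher in Si2AK than in SiC (0.62, SE 0.116, adjusted p = 0.00502), the smallest adjusted p of any member in that comparison. No single array ended this call (adjusted p of 0.00686 to 0.0239), and it was 0.63 without both arrays of raised signal (adjusted p = 0.012), but in a fit of these 2 groups alone Insig2 had an adjusted p of 0.116. Within slides it was 0.72 and 0.64, neither of which passed alone (adjusted p = 0.0681 and 0.191). Its other probe gave 0.68 (adjusted p = 0.012 over probes).

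Against Si1AK, Insig2 was 1.33-fold higher in Si2AK (0.41, SE 0.109, adjusted p = 0.0294), and against NT 1.47-fold (0.56, adjusted p = 0.00486). The call of Insig2 against Si1AK was lost without Si1AK replicate 1 (adjusted p = 0.0783), 2 (0.0506) or 3 (0.0847), without Si2AK replicate 1 (0.107) or 3 (0.111), and with normexp background correction (0.0645). Insig1, a strong SREBP target in other cells, was 0.27 higher in Si2AK than in Si1AK (interval -0.24 to 0.78) with a difference of -0.14 from SiC (interval -0.69 to 0.40). Insig1 varied widely within Si2AK, at -2.61, -1.71 and -2.55, with the highest value on the array of raised signal.

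Srebf2, which encodes the SREBP that chiefly drives cholesterol synthesis, stood at 2.21 ± 0.18 in NT, 1.91 ± 0.06 in SiC, 2.10 ± 0.05 in Si1AK and 2.13 ± 0.10 in Si2AK (SD, n = 4, 3, 4 and 3). It was 0.22 higher in Si2AK than in SiC (interval -0.01 to 0.44, adjusted p = 0.213), and the siRNAs differed by 0.02 (interval -0.18 to 0.23). Srebf1, whose products chiefly drive fatty acid synthesis, stood at -2.26 ± 0.29, -2.44 ± 0.05, -2.47 ± 0.08 and -2.48 ± 0.09 in the same order, with differences of -0.03 and -0.04 from SiC. Scap stood at 5.44 ± 0.09, 5.39 ± 0.16, 5.68 ± 0.07 and 5.60 ± 0.10, and the siRNAs differed by -0.08 (interval -0.28 to 0.12). The intervals of Srebf1, Srebf2, Scap and Insig1 (-0.24 to 0.78) between the siRNAs all included 0, and that of Insig2 did not (0.17 to 0.65). Setting these intervals side by side is not a test of Insig2 against the other regulators.

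The transport genes moved in opposite directions relative to untransfected cells. Npc1 stood at 0.18 ± 0.16 in NT, 0.41 ± 0.27 in SiC, 0.86 ± 0.09 in Si1AK and 0.68 ± 0.10 in Si2AK (SD, n = 4, 3, 4 and 3). It was 1.61-fold higher in Si1AK than in NT (0.68, SE 0.117, adjusted p = 0.00505) and 1.41-fold higher in Si2AK (0.50, adjusted p = 0.0192). The Npc1 call for Si1AK held without each single array (adjusted p of 0.0113 to 0.0197), and that for Si2AK was lost without Si2AK replicate 2 (0.0512) or 3 (0.0771). Npc1 in SiC differed from NT by 0.23 (interval -0.04 to 0.51), and Si1AK from SiC by 0.45 (adjusted p = 0.0711), so it lay between. Stard4 stood at 2.76 ± 0.14, 2.54 ± 0.17, 2.17 ± 0.25 and 2.48 ± 0.19 in the same order of groups. It fell by 0.59 in Si1AK against NT (adjusted p = 0.0244), a Stard4 call lost without NT replicate 2 (0.052), 3 (0.0608) or 4 (0.0662) or Si1AK replicate 1 (0.0848) or 2 (0.0841). The dimmer Stard4 probe gave -0.29 in Si1AK against NT (adjusted p = 0.178 over probes). In Si2AK against Si1AK the dimmer probe gave 0.49 (adjusted p = 0.0223 over probes) and the brighter one 0.31 (adjusted p = 0.243).

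Fatty acid synthesis was held by 5 members: Acly, which makes cytosolic acetyl-CoA from citrate, Acaca, the acetyl-CoA carboxylase, the synthase Fasn and the desaturases Scd1 and Scd2. In the main fit Scd1 and Scd2, which carry out the same reaction and lie beside each other in the genome, did not both pass in any comparison. Scd2 fell with Si2AK against SiC and NT, and Scd1 was higher with Si2AK than with Si1AK. Under some alternatives both passed in Si2AK against Si1AK, Scd1 being higher and Scd2 lower. These were quantile normalization, the authors' deposited table, probes well above background on all arrays, the slide as a block and the 2 groups alone.

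Scd2 stood at 7.23, 7.21, 7.27 and 7.17 in NT, at 6.65, 7.25 and 7.17 in SiC, at 6.91, 6.96, 6.87 and 7.10 in Si1AK, and at 6.53, 6.40 and 6.66 in Si2AK. The Si2AK arrays were the lowest apart from SiC replicate 1, which lay among them. In Si2AK Scd2 fell by 0.69 against NT (1.61-fold, SE 0.129, adjusted p = 0.00391), a call kept without each single array (adjusted p of 0.00849 to 0.0219). It fell by 0.49 against SiC (SE 0.138, adjusted p = 0.0359), a call lost without SiC replicate 2 (0.119), SiC replicate 3 (0.109), Si2AK replicate 1 (0.0954) or Si2AK replicate 2 (0.116). Without both arrays of raised signal it fell by 0.61 against SiC (adjusted p = 0.00414). Scd2 differed from SiC by -0.19 within slide 1, where SiC has only the array of raised signal, and by -0.54 within slide 2. Against Si1AK the Scd2 difference of -0.43 missed the threshold (adjusted p = 0.0514).

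Scd1 stood at 2.13, 1.97, 2.41 and 2.28 in NT, at 1.92, 2.16 and 2.24 in SiC, at 1.78, 1.85, 1.98 and 2.01 in Si1AK, and at 2.28, 2.33 and 2.28 in Si2AK. The Si2AK arrays lay close together above Si1AK and SiC and inside the range of NT. Scd1 was 1.31-fold higher in Si2AK than in Si1AK (0.39, SE 0.114, adjusted p = 0.0449), close to the threshold, and leaving out any of the 7 arrays ended the call (adjusted p of 0.0562 to 0.136). Within slides the Scd1 difference was 0.49 and 0.28, and without both arrays of raised signal it was 0.37 (adjusted p = 0.0677).

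Acly stood at 6.43 ± 0.09 in NT, 6.16 ± 0.28 in SiC, 6.25 ± 0.06 in Si1AK and 6.53 ± 0.06 in Si2AK (SD, n = 4, 3, 4 and 3). Acly was 0.38 higher in Si2AK than in SiC (interval 0.11 to 0.64, adjusted p = 0.063), of which 0.20 was left without both arrays of raised signal. Fasn and Acaca differed from SiC in Si2AK by -0.22 (interval -0.48 to 0.05) and 0.03 (interval -0.19 to 0.24).

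Related members were also set against each other in pairs within each array, where the subtracted 75th percentile cancels. A shift that differs with brightness does not cancel. On SiC replicate 1 the median deviation from the NT mean was -0.37 for bright genes and -0.05 for all genes. The pairs were chosen with the values in view, and the absolute size depends on the probes. Exact two-sided permutation tests of the 4 pairs in 3 comparisons (Si1AK and Si2AK against SiC, and Si2AK against Si1AK) gave p-values, adjusted over the 12 tests, of 0.114 to 0.914, so none passed. With 3 arrays against 3 the unadjusted p cannot be below 0.1, and with 4 against 3 not below 0.0286. Tests at the latter floor had an adjusted p of 0.114, so nothing is concluded from the lack of a passing test. Tm7sf2 minus Lbr was 0.35, 0.47, 0.40 and 1.01 in NT, 0.22, 0.52 and 0.57 in SiC, 0.15, 0.52, 0.41 and 0.76 in Si1AK, and 1.16, 1.54 and 1.43 in Si2AK. All Si2AK arrays were thus above all others, and the mean was 0.94 above SiC and 0.92 above Si1AK. Scd1 minus Scd2 was -5.11, -5.24, -4.86 and -4.89 in NT, -4.74, -5.09 and -4.93 in SiC, -5.12, -5.11, -4.89 and -5.09 in Si1AK, and -4.25, -4.07 and -4.39 in Si2AK. The Si2AK arrays again lay apart, by 0.68 from SiC and 0.82 from Si1AK on average, and SiC replicate 1 at -4.74 was the nearest to them of the other arrays. Insig2 minus Insig1 was 4.72, 4.90, 5.32 and 4.26 in NT, and averaged 4.73 ± 0.42 in SiC, 5.35 ± 0.16 in Si1AK and 5.49 ± 0.64 in Si2AK (SD, n = 3, 4 and 3), with Si2AK replicate 2 at 4.75 among the SiC arrays. Srebf2 minus Srebf1 was 4.55, 4.84, 4.34 and 4.15 in NT, and averaged 4.35 ± 0.10, 4.57 ± 0.10 and 4.61 ± 0.11 in the same order, so NT spanned the means of the other groups.

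**Figure D5:**
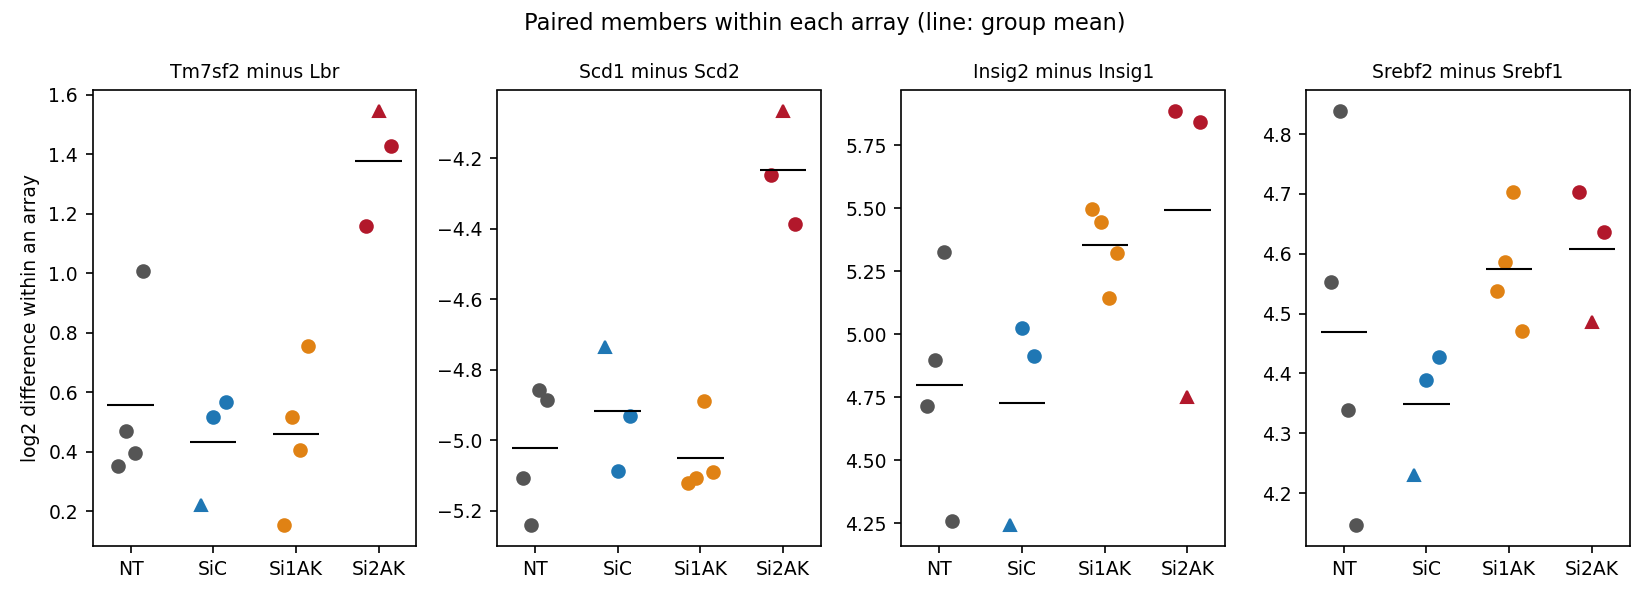
Log2 difference between the 2 genes of a pair within each array, by group (points are arrays, triangles the arrays of raised signal, lines group means). Tm7sf2 minus Lbr is 1.16 to 1.54 in Si2AK and at most 1.01 elsewhere, and Scd1 minus Scd2 is -4.39 to -4.07 in Si2AK and at most -4.74 elsewhere.

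Relative to untransfected cells, Si1AK called 4 of 32 members (12.5%, against 7.07% of all genes, 4.03% higher and 3.03% lower): Npc1 was higher and Pmvk, Fdps and Stard4 were lower. In the authors' deposited values 2 were higher and 3 lower. The differences were negative for 28 members, with a median of -0.25 against -0.09 over all genes and -0.10 over bright genes. Without both arrays of raised signal, which are in neither of these groups, 10 members were called (8 lower and 2 higher), among them Hmgcs1, Idi1, Sqle and Ebp. In that fit more of all genes were called as well, 3124 of 21356 against 1509 in the main fit. From the 4 members of the main fit, the count fell to 2 without NT replicate 2, NT replicate 4, Si1AK replicate 1 or Si1AK replicate 2. It rose to 7 without Si1AK replicate 4, where 1190 of all genes were called. Si2AK against NT called 5 of 32 (15.6%, against 15.6% of all genes, 7.97% higher and 7.68% lower): Hsd17b7, Insig2 and Npc1 were higher and Lbr and Scd2 lower, with a median of -0.05 against 0.02. That count fell to 3 without Si2AK replicate 2 or Si2AK replicate 3. Transfection itself also separates these groups from NT.

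SiC against NT gave no call with limma among the members or among all genes (0%), where 1584 of 21356 genes and 5 members (Srebf2, Fdps, Pmvk, Msmo1 and Acly) had an unadjusted p under 0.05. The difference was negative for 29 members, with a median of -0.15 against -0.01 over all genes and -0.14 over bright genes. Within slide 1, where SiC is the array of raised signal, the median was -0.32, and within slide 2 it was -0.07. Without both arrays of raised signal it was -0.04.

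Genes around the pathway were read from a list of 66, of which 60 were tested: further sterol and isoprenoid enzymes, SREBP processing, fatty acid and glycerolipid synthesis, and cholesterol transport with targets of the sterol receptor LXR. In Si1AK against SiC 1 was higher and 0 lower, in Si2AK against SiC 12 were higher and 2 lower, and in Si2AK against Si1AK 9 were higher and 4 lower. Over all genes, 8.52% were higher and 4.67% lower in Si2AK against SiC, and 6.33% and 6.15% in Si2AK against Si1AK. Fatty acid and glycerolipid synthesis held 6 of the 12, out of 22 tested. Lipa, the lysosomal acid lipase that frees cholesterol from its esters, had the smallest adjusted p and in Si2AK fell by 1.67 against SiC (SE 0.155, adjusted p = 0.000107), with a difference of -1.99 from Si1AK (adjusted p = 1.12e-05). Acss2, which makes acetyl-CoA from acetate, was higher by 1.19 than in SiC (SE 0.156, adjusted p = 0.000706) and by 1.16 than in Si1AK (adjusted p = 0.000383). The desaturase Fads3 was higher by 0.57 and 0.51, and Faf2, which takes part in the degradation of INSIG1, was higher than SiC by 0.62 (adjusted p = 0.00202). Abcg1, a sterol exporter and LXR target, was the gene called in Si1AK, at 1.35 above SiC (SE 0.177, adjusted p = 0.00167). In Si2AK its difference from SiC was -0.17 (adjusted p = 0.68), and Si2AK minus Si1AK was -1.52 (adjusted p = 0.000225).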

How the data were processed

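Total RNA of mSCC-38 cells (RIN 9, 0.2 µg of input, 600 ng of labelled RNA) was hybridised to Agilent arrays with 1 colour, 14 in all, on 2 slides of 7. Spot intensities were extracted and background-corrected by Agilent Feature Extraction 10.7.3.1, per the file headers, and its processed signal was used here. The marks for spots well above background and for outlier spots are 0 or 1 values of other kinds, per the file headers. The authors' deposited table holds log2 values with a median of 6.51 on every array, and its background step is not given in the sources used here. limma is named in the submitters' processing notes, with no version.

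From the intensities, log2 of the processed signal minus the 75th percentile of each array's 59305 non-control spots was computed. Outlier spots were removed (303 values missing in 296 genes, none of them a member) and spots of a probe averaged. Of 55681 probes, 30299 were kept, those that in 1 group or more exceeded background on all arrays of the group, and the brightest probe stood for each of 21356 genes. limma 3.58.1 (R 4.3.3) fitted the 4 groups over all 14 arrays (10 residual degrees of freedom), with Benjamini-Hochberg adjustment over all genes and a threshold of 0.05, in 6 comparisons. The fit was also run on simulated data with independent arrays and none of raised signal, so that run does not bear on those arrays. No array was identical to another. Members called against SiC or between the siRNAs are given on every array, and the others by group or by their differences. The members and lists were chosen with earlier results of these data known. Probe positions are on mm9, and promoters on GRCm38.p6. The number of arrays limits the precision. Alternatives changed the background correction, normalization, filter, probe rule, slide or replicate block, groups fitted and arrays left out.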

Additional observations from a re-analysis of the deposited data

Results flagged for a closer look

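In 6 of 64 groups of 4 arrays a member's extreme value stood apart from the other 3 by more than Dixon's critical value of 0.829, where chance flags about 1 group in 20. Cyp51 was at 8.94 on NT replicate 2 against 2.61 to 3.06 on the other NT arrays. Hsd17b7 was at 2.47 on NT replicate 3 against 3.21 to 3.23. Sc5d was at 5.68 on NT replicate 2 against 5.55 to 5.56. Srebf2 was at 1.95 on NT replicate 3 against 2.29 to 2.31. Npc1 was at -0.060 on NT replicate 2 against 0.25 to 0.27. Srebf1 was at -2.60 on Si1AK replicate 3, where the other Si1AK arrays were at -2.43 to -2.42.

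Responses to the siRNAs against the same control differed, by the test of the difference itself with limma, for 7 members. Si2AK minus Si1AK was 0.44 for Pmvk, 0.41 for Fdps, 0.53 for Sqle, 0.69 for Tm7sf2, 0.60 for Ebp, 0.41 for Insig2 and 0.39 for Scd1 (log2).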

How the results depend on the processing

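No member's called difference changed sign under any alternative run. Of the single values compared with their main value, 3658 stayed on their side of the threshold, 125 lost and 57 gained it. Members called numbered 0 in Si1AK against SiC, 4 in Si2AK against SiC, 4 in Si1AK against NT, 5 in Si2AK against NT and 7 in Si2AK against Si1AK. Quantile normalization gave 1 (Npc1) in Si1AK against SiC and 7 in Si1AK against NT (1239 and 1927 of all genes). The authors' deposited values gave 1 (Stard4) in Si1AK against SiC (1319 of all genes). Without the filter on dim probes, with more genes tested, the counts were 1 in Si2AK against SiC, 2 in Si1AK against NT, 3 in Si2AK against NT and 1 in Si2AK against Si1AK. The slide as a block gave 1 in Si1AK against SiC and 10 in Si1AK against NT (1380 and 2228 of all genes). Within slide 1 and within slide 2, with 1 or 2 arrays a group, 0 were called in any comparison. Fits of the 2 groups alone gave 0 in Si2AK against SiC, 3 in Si2AK against NT and 11 in Si2AK against Si1AK. Of all genes, 90, 2391 and 2933 were called there. Without both arrays of raised signal the counts were 2 in Si2AK against SiC and 10 in Si1AK against NT (2107 and 3124 of all genes). Some of these settings have fewer samples or more genes, and the cause of the changed counts was not tested.

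Leaving out single arrays gave 0 to 0 in Si1AK against SiC and SiC against NT, 2 to 7 in Si1AK against NT, 3 to 5 in Si2AK against NT, 1 to 3 in Si2AK against SiC and 2 to 6 in Si2AK against Si1AK. Si2AK against SiC fell to 1 without Si2AK replicate 2 and to 2 without SiC replicate 2 or 3 or Si2AK replicate 1 or 3. Si2AK against Si1AK fell to 2 without Si2AK replicate 2, to 3 without Si1AK replicate 1 or 3 or Si2AK replicate 1 or 3, and to 4 without Si1AK replicate 2. With the replicate number as a block, 3 members were called in Si2AK against SiC (Fdps in, Lbr and Scd2 out), 5 in Si1AK against NT (Ebp in), 4 in Si2AK against NT (Hsd17b7 out), 7 in Si2AK against Si1AK (Acat2 in, Insig2 out with an adjusted p of 0.0821) and 0 in the others. Deviations of same-numbered arrays correlated at -0.692 to 0.735 over 19 pairs (median 0.176, 12 over 0.1), and those of other pairs had a median of -0.0323 (20 of 54 over 0.1). Since not every same-numbered pair was over 0.1 and only 5 arrays correlated best with their own number, the numbers were not taken to pair the arrays. Quantile normalization moved the median of all genes from -0.06 to 0.06 in Si1AK against SiC, from -0.09 to 0.03 in Si1AK against NT and from 0.10 to -0.04 in Si2AK against Si1AK.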
